A study of Mus musculus with 6 samples.

Results

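Basal2 was 1 of the 16 clusters into which the authors sorted the cells of mouse tracheal epithelial cultures, and 1 of the 8 that they named basal. A cell belonged to it when the deposited cell table gave it that cluster name, and 2269 of 23871 cells (9.51%) did. The cultures came from C57BL/6 mice aged 12 weeks, 3 of the genotype *WT/WT* (WT1, WT2 and WT3) and 3 of the genotype *MIS/MIS* (MT1301, MT1306 and MT1383), and each mouse gave 1 library. *MIS/MIS* mice are homozygous for a missense allele of *Dnaaf5*, a gene required to assemble the dynein motors of motile cilia, made by CRISPR-Cas9 editing of embryos and exchanging a cysteine for a phenylalanine. *WT/WT* mice were littermates without the allele. Basal cells of each mouse were expanded in culture, differentiated on membranes at an air-liquid interface and profiled by droplet single-cell RNA-Seq, which counts unique molecular identifiers (UMIs) at the 3′ ends of transcripts. The mouse was the replicate throughout, and an expression level is the number of UMIs of a gene over the summed cells of a mouse, scaled to a total of 1000000 UMIs (CPM).

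Basal cells are the progenitors that lie on the basement membrane of the trachea and give rise to secretory and multiciliated cells, and they are known by the keratins *Krt5* and *Krt14* and the transcription factor *Trp63*. Retinoic acid, made by the Aldh1a enzymes, acts through nuclear receptors (RARs) on DNA and favours mucociliary over squamous differentiation of airway epithelium. Enzymes of the Cyp26 family break it down, and *Cyp26a1* and *Rarb* are textbook genes that retinoic acid induces through a response element next to their start sites.

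The sequences below are promoters of the degrading enzyme that marks Basal2 and of these induced genes, from RefSeq (GRCm38.p6), and run from 250 bases before to 50 bases after the start. They are shown to set the marker of the cluster beside the 2 induced genes. Capitals mark a match to the DR5 retinoic acid response element, a direct repeat of the half-site bound by RARs with a spacer of 5 bases, searched on both strands.
Rarb, chr14:16575427-16575726, minus strand: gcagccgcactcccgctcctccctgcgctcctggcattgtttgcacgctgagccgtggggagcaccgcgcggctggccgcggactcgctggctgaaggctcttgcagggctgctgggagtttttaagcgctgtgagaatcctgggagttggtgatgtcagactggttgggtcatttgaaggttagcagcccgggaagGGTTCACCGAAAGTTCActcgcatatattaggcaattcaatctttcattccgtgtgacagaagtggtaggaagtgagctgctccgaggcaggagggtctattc
Cyp26a1, chr19:37697558-37697857, plus strand: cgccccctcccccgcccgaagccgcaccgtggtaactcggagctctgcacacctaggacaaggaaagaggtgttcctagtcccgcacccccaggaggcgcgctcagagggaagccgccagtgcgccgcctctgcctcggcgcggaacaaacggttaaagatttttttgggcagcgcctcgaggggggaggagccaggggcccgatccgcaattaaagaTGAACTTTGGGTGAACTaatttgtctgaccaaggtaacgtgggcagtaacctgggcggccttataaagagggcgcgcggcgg
Cyp26b1, chr6:84593761-84594060, minus strand: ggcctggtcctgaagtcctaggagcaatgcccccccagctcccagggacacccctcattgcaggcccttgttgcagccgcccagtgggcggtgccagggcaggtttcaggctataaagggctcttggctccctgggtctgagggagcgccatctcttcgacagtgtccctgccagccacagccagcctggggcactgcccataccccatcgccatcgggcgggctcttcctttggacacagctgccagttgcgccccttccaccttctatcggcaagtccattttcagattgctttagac
In *Rarb* the match begins at position -53 from the start, and in *Cyp26a1* it lies on the opposite strand and begins at position -32. The *Cyp26b1* window held none, which says only that these letters are not in these 300 bases. Of all 32851 mouse promoters of this length, 32 (0.0974%) held the motif. Promoters were matched for 4 of the 4 marker genes, of which 0 held it, and for 26 of the 33 genes of the retinoic acid lists, of which 2 held it.

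Each mouse contributed Basal2 cells, from 105 in WT1 to 1295 in MT1383, so that MT1383 held 57.1% of them. Levels are therefore means over mice with equal weight. The median Basal2 cell carried 19708 UMIs, with 4379 genes detected and a mitochondrial share of 10.2%. By mouse the median was 16963 in MT1383 and 19763 to 30839 in the others, against 20359 and 22322.5 to 32225 in their other basal cells. Summed Basal2 cells held 3451698 to 23522004 UMIs per mouse. Libraries shared 67 cell barcodes, and 14 Basal2 cells carried such a barcode. The authors drew the clusters from the expression of the same genes, so comparisons of Basal2 with other clusters are descriptions without a test.

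The 4 genes that mark the cluster are *Cyp26b1* (GRCm38, chr6:84571414-84593908, minus strand), *Upk3a* (chr15:85017141-85022547, plus strand), *Timp3* (chr10:86300372-86349506, plus strand) and *Dapl1* (chr2:59484653-59505020, plus strand). *Cyp26b1* encodes a retinoic acid hydroxylase, *Upk3a* a uroplakin of the urothelial plaque, *Timp3* a matrix-bound inhibitor of metalloproteinases and *Dapl1* a small protein of epithelia. *Cyp26b1* stood at 15.6, 8.60 and 49.3 CPM in WT1, WT2 and WT3 and at 9.70, 35.4 and 61.8 in MT1301, MT1306 and MT1383. WT3, MT1306 and MT1383 were high and the others low, and both genotypes were in each set. The same mice were highest in Basal3 (17.5, 17.6 and 21.0 against 4.03 to 8.04) and in Secretory1 (15.2, 14.3 and 28.6 against 3.40 to 9.50). In Basal2 the mean of *Cyp26b1*, 30.1 ± 22.3 (SD, n = 6 mice), was the highest of the 16 clusters. Basal5 came next with 19.3 ± 12.7 (n = 5 mice with at least 20 cells), a difference smaller than the spread between mice. Within mice, Basal2 had the highest *Cyp26b1* level of all clusters in 5 of 6, the exception being MT1301.

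The other markers were shared with other basal clusters. *Timp3* reached 294 ± 61.1 CPM in Basal2 and 352 ± 147 in Basal7. *Upk3a* reached 12.0 ± 8.87 in Basal2 and 20.1 ± 21.0 in Basal7. For *Dapl1*, Basal3 led with 311 ± 90.9 against 191 ± 40.0 in Basal2. Basal2 was the highest cluster for *Timp3* in 3 mice, for *Upk3a* in 2 and for *Dapl1* in 1. Against the 8857 cells of the other 7 basal clusters, summed within each mouse, all 4 markers were higher in 6 of 6 mice. The mean log2 ratio, with 1 CPM added to both levels, was 1.17 for *Cyp26b1* (0.49 to 1.94 over mice), 1.91 for *Upk3a* (0.66 to 2.67), 1.33 for *Timp3* (0.36 to 2.90) and 0.80 for *Dapl1* (0.36 to 1.22).

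**Figure D1:**
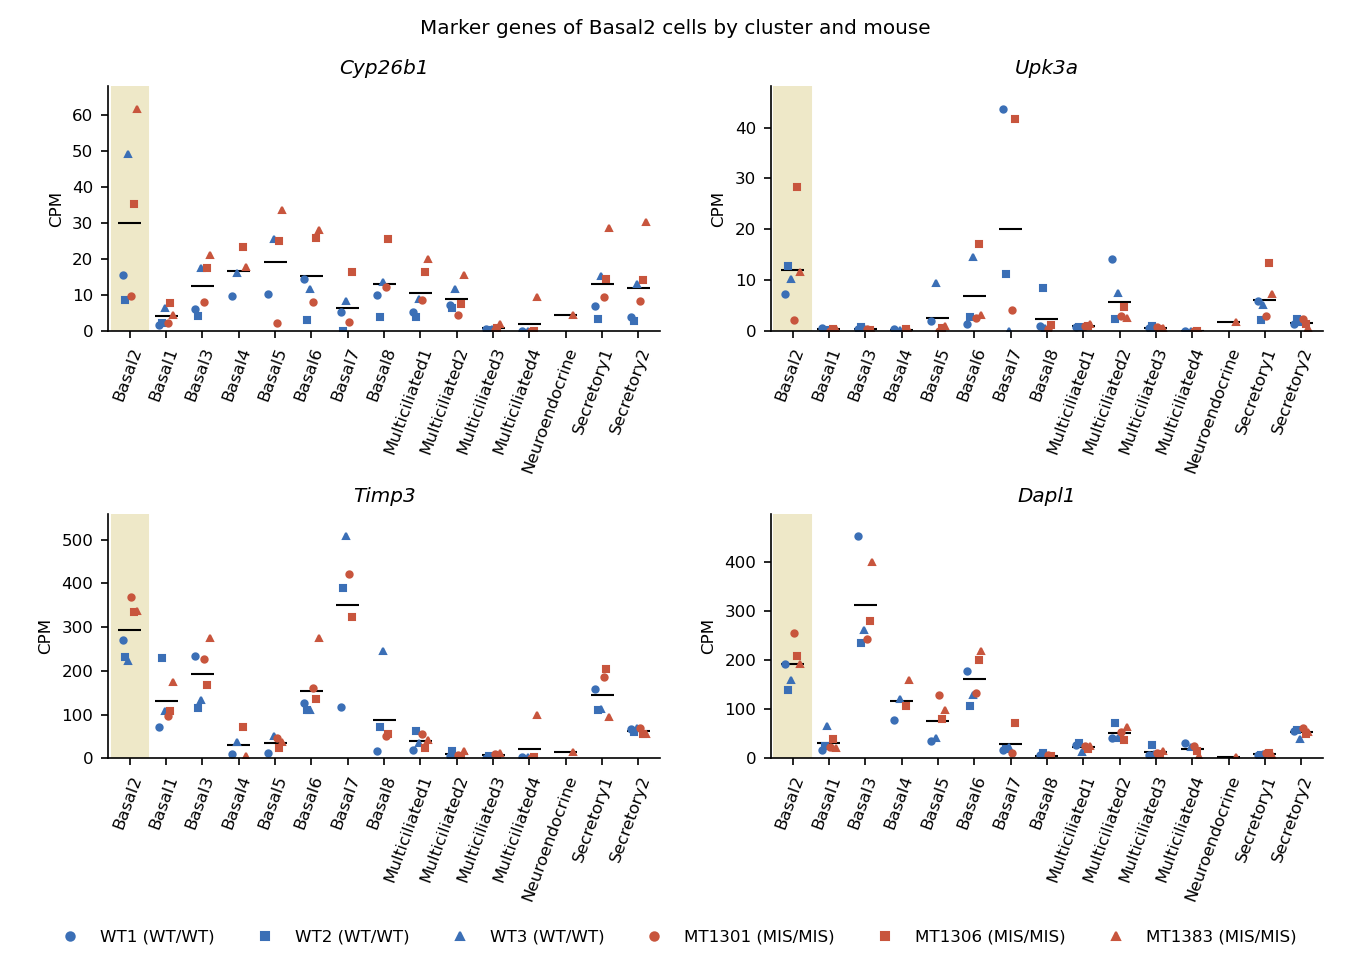
Levels of the 4 markers (y axis, CPM) in each cluster (x axis), with points for mice that held at least 20 cells of the cluster, coloured by genotype, and horizontal bars for the mean over mice. *Cyp26b1* has its highest mean in Basal2 (30.1), *Upk3a* and *Timp3* in Basal7 and *Dapl1* in Basal3, and ionocytes are left out because no mouse held 20 of them.

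In single cells the markers were sparse. After each cell was thinned to 5000 UMIs, which all 2269 Basal2 cells reached, 14.5% of Basal2 cells, pooled over mice, held a UMI of *Cyp26b1* (4.10% to 18.1% by mouse). That share was 4.65% of other basal cells (1.59% to 7.79% by mouse) and 0.442% of Multiciliated3 cells, the cluster with the lowest mean of the gene. Multiciliated3 is given as a reference for background, and how far its detections come from free RNA was not tested. Without thinning, the *Cyp26b1* shares were 32.5% of Basal2 and 14.8% of other basal cells, at median depths of 19708 and 27983 UMIs (26359.5 in Multiciliated3). *Timp3* was detected in 51.0% of thinned Basal2 cells (40.0% to 58.2% by mouse), against 24.9% of other basal (8.04% to 38.9%) and 2.40% of Multiciliated3 cells. *Dapl1* was detected in 44.2% (36.9% to 64.8% by mouse), against 30.0% (25.7% to 36.4%) and 4.39%. *Upk3a* was rare, with 3.00% of Basal2, 0.452% of other basal and 0.184% of Multiciliated3 cells. Pooled over mice, at least 2 of the 4 markers occurred together in 783 Basal2 cells (34.5%) and in 0.369% of Multiciliated3 cells. At this depth 578 Basal2 cells (25.5%) held none of them.

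The name of the cluster was then checked against basal and secretory genes. *Krt5* stood at 178, 278 and 425 CPM in WT1, WT2 and WT3 and at 346, 228 and 188 in MT1301, MT1306 and MT1383, in each mouse below the other basal cells (mean 274 ± 96.8 against 528 ± 202, log2 ratio -0.94). *Krt14* was also lower in 6 of 6 mice (291 ± 104 against 746 ± 443, log2 ratio -1.29). *Trp63*, the transcription factor of basal cells, reached 45.9 ± 6.68 against 58.4 ± 16.6 and was lower in 4 of 6 mice. Both *Krt5* and *Trp63* were far above the secretory clusters, where Secretory2 held 92.8 CPM of *Krt5* and 12.1 of *Trp63* and Secretory1 held 5.93 and 1.66. *Pdpn*, a membrane glycoprotein used as a basal cell marker, had its highest mean of all clusters in Basal2 (222 ± 19.5 against 108 ± 18.6 in other basal cells, log2 ratio 1.04, 0.88 to 1.20 over mice). Basal3 (194 ± 17.8) and Basal7 (182 ± 21.9) were close to it. Of 18 listed basal genes, all of which passed the filter of 5 CPM, 4 were higher and 5 lower than in other basal cells in 6 of 6 mice. Over all 9893 genes that passed, 14.1% were higher in 6 of 6 mice and 17.3% were lower, and the median log2 ratio was -0.02.

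Secretory transcripts ran through the same cluster. *Scgb3a2*, a secretoglobin of club cells, stood at 2439, 1962 and 1715 CPM in WT1, WT2 and WT3 and at 2146, 1473 and 4456 in MT1301, MT1306 and MT1383. MT1383 was the highest and the other 5 mice overlapped between genotypes. The mean of 2365 ± 1078 compared with 449 ± 195 in other basal cells (log2 ratio 2.42, 1.65 to 3.50 over mice), 3036 in Secretory2 and 13754 in Secretory1. Of 14 listed secretory genes, 12 passed the filter, 4 were higher in 6 of 6 mice and 1, *Ltf*, was lower. At 5000 UMIs per cell, pooled over mice, *Krt5* and *Scgb3a2* were found together in 451 Basal2 cells (19.9%). *Scgb3a2* occurred without *Krt5* in 1092 (48.1%), *Krt5* without *Scgb3a2* in 407 (17.9%) and neither in 319 (14.1%). MT1383 held 57.1% of the Basal2 cells and so weighs most in these shares. By mouse, *Scgb3a2* was found in 48.8% to 78.7% of Basal2 cells and *Krt5* in 33.6% to 57.4%. *Scgb3a2* was also found in 25.1% of Multiciliated3 cells. How far free RNA accounts for these detections, or for Basal2 cells with both genes, was not tested. Across 9698 genes, the mean profile of Basal2 was ranked most like Secretory2 (Spearman 0.969), Basal8 (0.969) and Basal3 (0.968), which are nearly equal. Within mice Secretory2 ranked first in 3, Basal3 in 2 and Basal8 in 1, and genes are not independent replicates.

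A finer clustering in the deposited cell table divided Basal2. Of its cells, 2233 (98.4%) fell into finer cluster 7 (1154 cells) or finer cluster 8 (1079 cells). Finer cluster 7 also held 300 Secretory1 cells, and finer cluster 8 held 41 Basal3 cells. Both were compared in the 5 mice with at least 20 Basal2 cells in each, since MT1301 had 19 cells in finer cluster 7. The median depths were close, at 19858 and 18871 UMIs. Of 6012 genes at 20 CPM or more, 19.9% were higher in finer cluster 7 in 5 of 5 mice and 24.5% were higher in finer cluster 8. Counts of listed members in the next paragraphs are to be read against these shares. The finer clusters were also drawn from the expression of these genes, so the counts are descriptions without a test. A gene under 20 CPM in finer cluster 7, such as *Trp63*, passed only through finer cluster 8, which fixed its direction, and the reverse holds for genes low in finer cluster 8.

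The 4 markers separated between these parts. *Cyp26b1* was higher in finer cluster 7 in 5 of 5 mice, with 24.0, 12.6 and 73.3 CPM in WT1, WT2 and WT3 and 45.4 and 81.8 in MT1306 and MT1383, against 8.33, 3.25, 18.4, 27.5 and 31.5 in finer cluster 8 of the same mice (mean log2 ratio 1.42). *Upk3a* went the same way (27.1 ± 22.9 against 2.55 ± 3.57, log2 ratio 3.15). *Timp3* went the other way, with 129 ± 49.7 in finer cluster 7 and 449 ± 83.4 in finer cluster 8 (log2 ratio -1.89). *Dapl1* also went the other way, with 45.8 ± 17.0 and 324 ± 56.9 (log2 ratio -2.87). In single cells thinned to 5000 UMIs, *Cyp26b1* was found in 19.8% of cells of finer cluster 7 and 8.80% of finer cluster 8, and *Dapl1* in 18.7% and 72.0%.

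Basal genes followed *Timp3* and *Dapl1*. *Krt5* reached 41.3 ± 15.3 CPM in finer cluster 7 and 515 ± 247 in finer cluster 8 (log2 ratio -3.57). *Krt14* reached 28.5 ± 36.9 and 561 ± 278, with 93.4 in WT1 and 4.87 to 19.9 in the other 4 mice of finer cluster 7. *Trp63* reached 8.93 ± 4.51 and 85.3 ± 18.6 (log2 ratio -3.23). Of the 18 basal genes, 15 were higher in finer cluster 8 in 5 of 5 mice and 1 in finer cluster 7. Laminins, integrins and other basement membrane and adhesion genes showed the same direction, 14 of the 18 at this level being higher in finer cluster 8 and 0 in finer cluster 7. *Krt15*, another basal keratin, differed little (3532 ± 724 and 3851 ± 833).

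Secretory genes followed *Cyp26b1* and *Upk3a*. *Scgb3a2* reached 3995 ± 1674 CPM in finer cluster 7 and 660 ± 232 in finer cluster 8. *Reg3g*, an antimicrobial lectin, reached 9624 ± 6881 and 2021 ± 1740. *Lyz2*, a lysozyme, reached 404 ± 194 and 22.9 ± 6.05. Of 11 secretory genes at this level, 10 were higher in finer cluster 7 in 5 of 5 mice and 0 in finer cluster 8. *Aldh1a1*, which makes retinoic acid, was higher in finer cluster 7 as well (968 ± 253 against 470 ± 118, log2 ratio 1.04). The label basal thus held by *Krt5*, *Krt14* and *Trp63* for finer cluster 8, whereas in finer cluster 7, where *Cyp26b1* was highest, these genes stood at or below their Secretory2 levels apart from *Krt14* (11.0 in Secretory2).

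**Figure D2:**
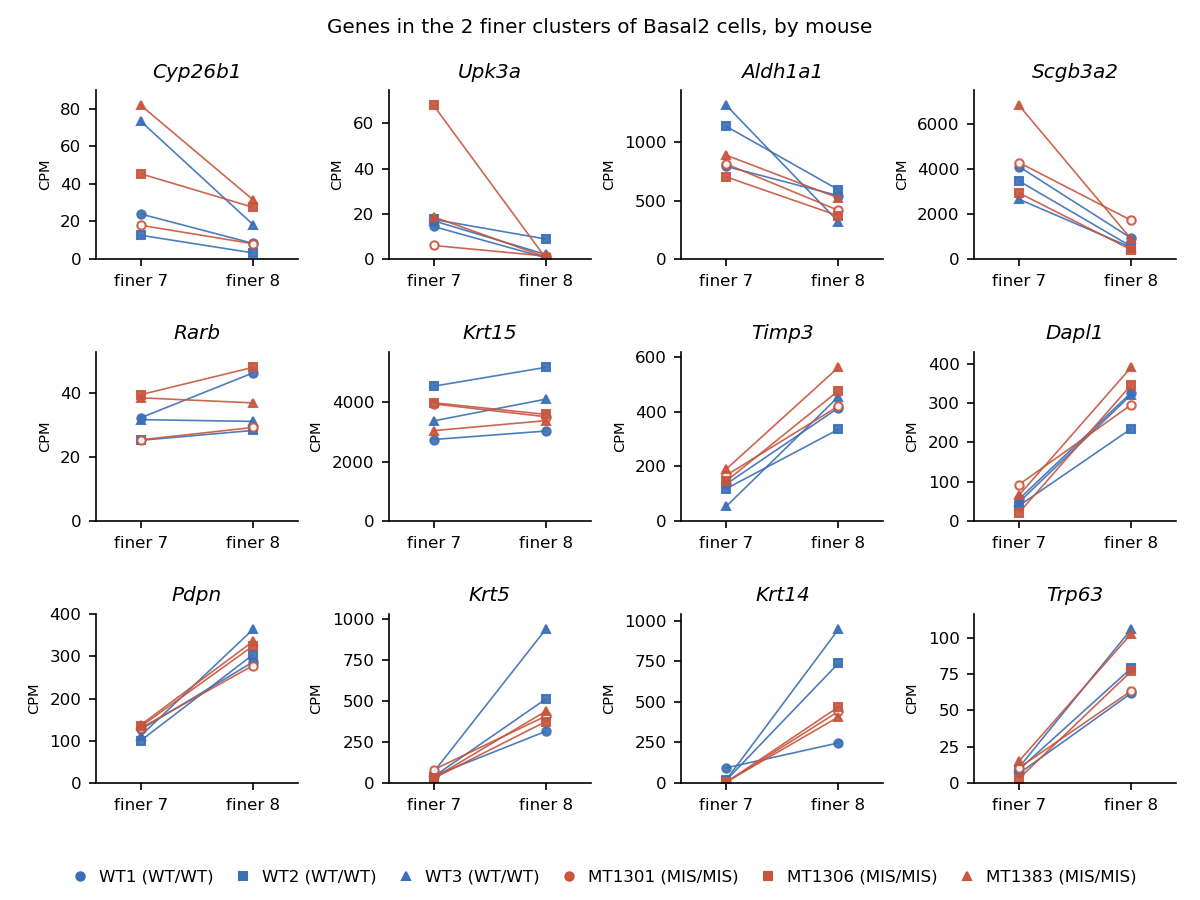
Levels (y axes, CPM, linear from 0) of markers and of basal and secretory genes in finer clusters 7 and 8 of Basal2, with a point for each mouse coloured by genotype and a line joining the points of a mouse, where the open points are MT1301, which had 19 cells in finer cluster 7. *Cyp26b1*, *Upk3a* and *Scgb3a2* are higher in finer cluster 7, and *Timp3*, *Dapl1*, *Krt5* and *Trp63* in finer cluster 8.

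Genes of the retinoic acid pathway were described by role. Of the degrading enzymes measured, *Cyp26b1* was the marker described above, and *Cyp26a1* stood at 1.81 ± 0.652 CPM in Basal2 and 1.50 ± 0.589 in other basal cells. Among the synthesising enzymes, *Aldh1a1* stood at 668, 861 and 898 in WT1, WT2 and WT3 and at 489, 511 and 745 in MT1301, MT1306 and MT1383. In each mouse it was above the other basal cells (mean 695 ± 172 against 377 ± 84.4, log2 ratio 0.87), but far below the highest cluster, Multiciliated3 (5447). *Aldh1a3* was the opposite, at 0.378 on average in Basal2 and 54.5 ± 43.3 in other basal cells (log2 ratio -4.77). The highest means were in Basal1 (194) and Basal4 (61.3). Its low level was not particular to Basal2, with 0.877 in Basal3, 0.836 in Basal5, 1.58 in Basal8 and 0.272 in Secretory2. At 5000 UMIs per cell *Aldh1a3* was found in 0.309% of Basal2 cells, below the 0.664% of Multiciliated3 cells.

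Carriers of retinoids also differed in direction. *Rbp4*, the plasma carrier of retinol, was higher in Basal2 in 6 of 6 mice (24.4 ± 10.3 against 6.61 ± 1.94). *Fabp5*, a fatty acid binding protein that can carry retinoic acid to another nuclear receptor, was lower in 6 of 6 (23.6 ± 7.43 against 150 ± 67.6, log2 ratio -2.56), with only 1 cluster below Basal2. *Stra6*, a retinol importer, was lower in 6 of 6 (3.73 ± 2.84 against 13.3 ± 6.55). Basal3 was as low (3.93), and the highest means were in Basal7 (60.3) and Basal4 (38.2). Of 20 synthesis and transport genes, 15 passed the filter, 2 were higher in 6 of 6 mice and 6 were lower. The shares over all genes were 14.1% and 17.3%. Members under 5 CPM in Basal2, such as *Stra6* and *Aldh1a3*, passed only through the other basal cells, which fixed their direction.

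Receptors varied less. *Rarb* stood at 39.1, 26.5 and 31.0 CPM in WT1, WT2 and WT3 and at 28.6, 44.8 and 38.0 in MT1301, MT1306 and MT1383. Each value was above that of the other basal cells of the same mouse (mean 34.7 ± 7.1 against 22.1 ± 4.55, log2 ratio 0.63, 0.11 to 1.43 over mice), and only Basal3 had a higher mean (36.7). Unlike *Cyp26b1*, *Rarb* was close in finer clusters 7 and 8 (33.5 ± 5.80 and 38.2 ± 8.84). In thinned cells *Rarb* was found in 15.8% of Basal2, 10.4% of other basal and 6.78% of Multiciliated3 cells. *Rara* (22.5 ± 3.74 against 21.7 ± 2.63) and *Rxra* (24.2 ± 3.00 against 22.6 ± 2.12) did not differ beyond the spread. *Nrip1*, a corepressor of nuclear receptors that retinoic acid induces, was higher in 6 of 6 mice (268 ± 27.2 against 211 ± 31.5). Of 10 listed receptors and cofactors, 9 passed the filter and 4 were higher in 6 of 6 mice, against a share of 14.1% over all genes.

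Relatives of the other markers did not follow them. *Upk1b*, a uroplakin of airway as well as bladder, was near equal in Basal2 and other basal cells (536 ± 69.6 and 492 ± 125). *Upk3bl* was lower in 6 of 6 mice (105 ± 34.1 against 319 ± 89.4, log2 ratio -1.61). Of the metalloproteinase inhibitors, *Timp2* was near equal (279 ± 38.1 and 293 ± 57.6) and *Timp1* was lower in 6 of 6 mice (1.37 ± 0.842 against 21.8 ± 22.7). *Timp1* had its highest mean in Basal1 (62.9) and was also low in Basal3 (1.81), Basal5 (0.889) and Basal8 (0.498). It passed the filter only through the other basal cells, which fixed its direction.

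The 20 genes with the largest lowest-mouse ratio to other basal cells peaked in several clusters. After *Scgb3a2*, the cytochrome P450 *Cyp4b1* had a mean of 196 ± 35.0 CPM against 36.5 ± 15.3 (log2 ratio 2.46), the aldehyde oxidase *Aox3* 262 ± 51.2 against 73.5 ± 16.9 and *Selenbp1*, a methanethiol oxidase, 3325 ± 378 against 1102 ± 302. *Sftpd*, surfactant protein D, reached 506 ± 41.2 against 184 ± 40.7, and *Alas1*, the first enzyme of haem synthesis, 443 ± 59.2 against 174 ± 12.9. For these 5 genes Secretory1 had the highest mean of all clusters. Also among the 20 were *1810010H24Rik*, *Sec14l3*, *Gm41715*, *Lypd2*, *Rbp4*, *Fbxo2*, *Smim1*, *Gpr155*, *Gfra1* and *Cyfip2*.

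Only 4 of the 20 had their highest mean of all clusters in Basal2. They were *Pdpn*, the neurotrophin *Ntf3* (21.3 ± 2.81 against 7.23 ± 2.78 in other basal cells), the adhesion molecule *Icam1* (127 ± 17.7 against 52.9 ± 14.3) and the lectin *Lgals9* (69.1 ± 20.1 against 25.6 ± 8.77). Basal3 came next for *Pdpn* (194 ± 17.8), *Ntf3* (15.2 ± 4.86) and *Icam1* (103 ± 19.4). For *Lgals9*, ionocytes came next (63.4, from 28 cells). All 4 were higher in finer cluster 8 than in finer cluster 7, as with *Icam1* (165 ± 28.9 and 85.1 ± 12.3) and *Ntf3* (30.1 ± 6.30 and 12.3 ± 2.65). The rule took the largest ratios, so the ratios themselves are no finding.

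**Figure D3:**
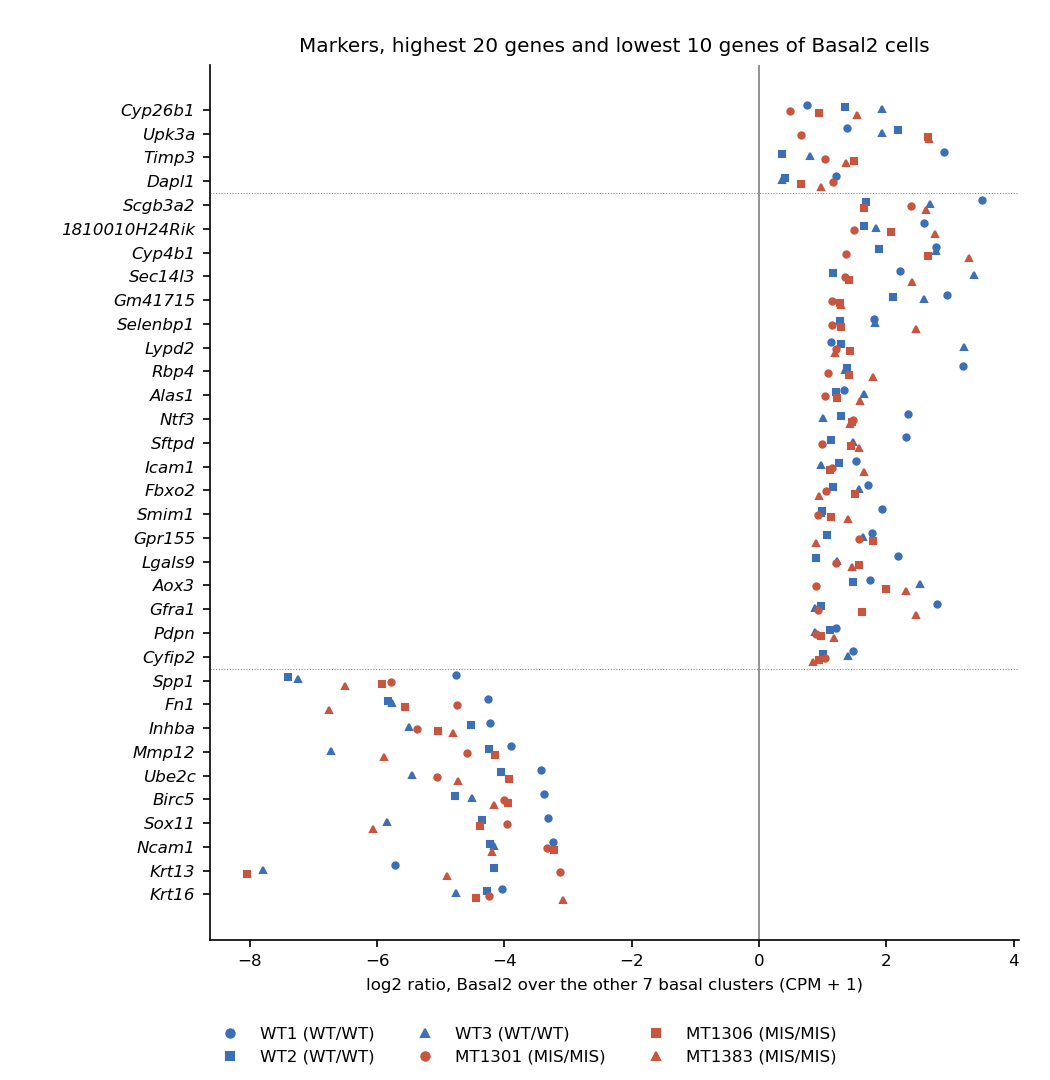
Log2 ratio of the level in Basal2 over that in the other basal cells of the same mouse (x axis, 1 CPM added) for the markers and the genes with the largest and most negative ratios (y axis), with a point for each of 6 mice coloured by genotype. All points of *Scgb3a2* lie between 1.65 and 3.50, and those of *Spp1* between -7.39 and -4.75.

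Cell cycle transcripts were low in Basal2, which was not particular to it. *Mki67*, a proliferation marker, stood at 0.754 ± 0.591 CPM against 25.2 ± 10.1 in other basal cells. In thinned cells it was found in 0.441% of Basal2, 0.392% of Basal7, 1.32% of Basal3 and 47.5% of Basal6. The 23 listed G2/M genes, of which 16 were under 1 CPM in Basal2, summed to 30.7 to 50.6 CPM over mice against 174 to 581 in other basal cells, where the cycling cluster Basal6 reached 3703. The 23 S-phase genes summed to 211 to 252 against 252 to 546. Most G2/M genes passed the filter only through the other basal cells, which fixed their direction, so no count of members is given. Among the 10 genes with the most negative highest-mouse ratio were the mitotic genes *Ube2c* (1.13 ± 1.02 against 47.6 ± 21.9) and *Birc5* (0.453 ± 0.444 against 25.6 ± 9.94).

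The remaining 8 of these 10 were matrix, squamous and other genes. *Spp1*, osteopontin, stood at 1.12 ± 0.736 against 194 ± 151 (log2 ratio -6.27), *Fn1*, fibronectin, at 2.22 ± 1.68 against 143 ± 78.7, and *Inhba*, an activin subunit, at 0.400 ± 0.424 against 45.0 ± 27.1. Basal1 had the highest mean for these 3 genes, as for *Mmp12* and *Sox11*. Low levels of the 3 were not particular to Basal2. *Spp1* stood at 1.73, 0.912 and 1.03 in Basal3, Basal5 and Basal8, and *Fn1* at 1.51, 0.530 and 0.168. In the same clusters *Inhba* stood at 1.31, 0.651 and 1.02. The rule took the most negative ratios, so the ratios themselves are no finding. *Krt13*, a keratin of hillock and squamous cells, was at 93.3 in WT1 and between 1.25 and 7.07 in the other 5 mice, against a mean of 1259 ± 1938 in other basal cells, and *Krt16* and *Ncam1* completed the 10. The 24 hillock and squamous genes, of which 8 were under 1 CPM in Basal2, summed to 1583 to 2398 CPM over mice against 2564 to 13122 in other basal cells and 18817 in Basal4.

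Other listed groups are given by counts of members higher or lower than in other basal cells in 6 of 6 mice, to be read against the shares of 14.1% and 17.3% over all genes. Here and below, the filter took genes at 5 CPM in either group. A member under this level in Basal2 passed only through the other basal cells, which fixed its direction. Of 20 immediate early and stress genes, 8 were higher and 4 lower, and their summed level, 8259 CPM on average, was the highest of all clusters. *Jun*, a subunit of the AP-1 transcription factor (974 ± 119 against 558 ± 138), *Ier2* (730 ± 49.5 against 436 ± 34.0) and *Zfp36* (275 ± 14.2 against 197 ± 34.6) had their highest mean in Basal2. Of 12 Hippo pathway genes that passed, 3 were higher and 0 lower. They included *F3*, tissue factor (1234 ± 59.7 against 743 ± 84.1), and *Ccn1* (238 ± 37.5 against 168 ± 52.7), both with their highest mean in Basal2.

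Ligands and receptors of signalling pathways moved in both directions. *Hes1*, a target of Notch, had its highest mean in Basal2 (394 ± 52.9 against 323 ± 46.5), whereas *Jag1*, a Notch ligand, was lower in 6 of 6 mice (14.9 ± 2.01 against 41.8 ± 14.7), and of 11 Notch genes that passed 2 were higher and 3 lower. *Tgfb2* was higher in 6 of 6 mice (252 ± 58.8 against 114 ± 38.1) and *Tgfb1* lower in 6 of 6 (18.3 ± 4.66 against 49.2 ± 8.40), and of 20 BMP and TGF-β genes 4 were higher and 7 lower. *Fgfr3* had its highest mean in Basal2 (45.7 ± 6.99 against 30.3 ± 10.8, higher in 5 of 6 mice), and of 10 FGF and hedgehog genes 3 were higher and 0 lower. *Areg*, an EGF receptor ligand, was lower in 6 of 6 mice (56.9 ± 42.7 against 246 ± 151), and of 11 EGF family genes 1 was higher and 3 lower. Of 16 Wnt genes, 0 were higher and 5 lower.

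Of 30 listed matrix protease and inhibitor genes, 17 passed the filter and 16 were under 1 CPM in Basal2. Some therefore passed only through the other basal cells, which fixed their direction, so no count of lower members is given. Of 22 basement membrane and adhesion genes, 3 were higher, among them *Agrn* (57.1 ± 6.76 against 39.0 ± 6.80), and 10 were lower, among them *Itga6* (93.7 ± 13.7 against 153 ± 24.1). Of 10 cytochrome P450 genes outside the Cyp26 family, 5 were higher and 2 lower. *Cyp2f2*, an enzyme of club cells, stood at 8494 ± 636 against 4923 ± 1078, and *Por*, which passes electrons to these enzymes, at 839 ± 100 against 439 ± 44.8. *Cyp51*, of sterol synthesis, was lower (50.3 ± 11.6 against 107 ± 14.8).

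Markers of other cell types were low for ionocytes (7 genes, summed level 1.87 to 3.77 CPM over mice), neuroendocrine cells (7 genes, 0 to 0.623), endothelium (4 genes, 0.233 to 1.31) and muscle (6 genes, 0 to 0.786). The 7 immune genes summed to 122 to 344, nearly all of it *Lyz2*, with *Ptprc*, which defines leukocytes, at 0. The 8 fibroblast genes summed to 29.9 to 102, nearly all of it *Dcn*. The 7 tuft genes summed to 28.7 to 60.8, most of it *Dclk1*, the 13 multiciliated genes to 556 to 661, most of it *Tubb4b*, and the 8 goblet genes to 20.4 to 144. Their part in the results above was not tested.

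Among Basal2 cells of the same mouse, 5 of the 10 genes that varied most at 5000 UMIs per cell encode secreted proteins, most of them of host defence. The ratio of variance to mean, which is near 1 when only counting varies a level, was 91.7 for *Bpifa1*, 52.5 for *Reg3g*, 48.4 for *Scgb3a2*, 26.1 for *Lyz2* and 18.5 for *Ltf* (medians over mice). Over the 5719 genes with a mean of at least 0.1 UMI the median ratio was 1.03, and 162 genes exceeded 2. *Scgb3a2* had a median of 2 UMIs per cell and a 90th percentile of 50. The other 5 were *Malat1*, a nuclear non-coding RNA (35.0, the fourth highest), *Cbr2* (15.4), *Gm42418* (14.9), *mt-Atp6*, a mitochondrial transcript (14.6), and *Nupr1* (13.8).

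The share of Basal2 among all cells was 3.69%, 4.21% and 10.6% in WT1, WT2 and WT3 and 3.03%, 9.28% and 19.3% in MT1301, MT1306 and MT1383. MT1383 was the highest and MT1301 the lowest of all 6 mice, so the genotypes overlapped. The means were 6.18% ± 3.87 for *WT/WT* and 10.5% ± 8.21 for *MIS/MIS* (SD, n = 3 mice each), with a difference of 4.35 percentage points (two-sided exact permutation test, p = 0.7, the smallest possible being 0.1). Without MT1383 the difference was -0.03 percentage points (exact p = 1). As a share of basal cells, Basal2 made up 5.73%, 10.7% and 19.5% in WT1, WT2 and WT3 and 6.71%, 20.3% and 45.7% in MT1301, MT1306 and MT1383 (exact permutation test, p = 0.4). It was the largest basal cluster in MT1383 alone, ranking between 2 and 6 of the 8 in the other mice.

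The share of Basal2 cells in finer cluster 7 was 48.6%, 44.6% and 52.9% in WT1, WT2 and WT3 and 15.6%, 37.5% and 57.5% in MT1301, MT1306 and MT1383. MT1301 stood lowest, MT1383 highest, and the genotypes overlapped (means 48.7% ± 4.14 and 36.8% ± 20.9, exact permutation test, p = 0.5).

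**Figure D4:**
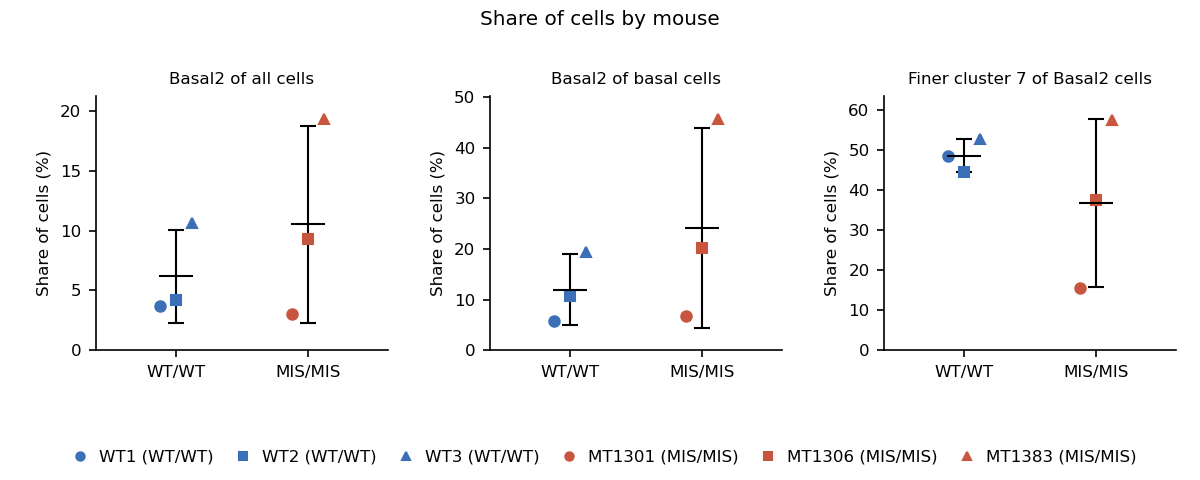
Basal2 cells of each mouse as a percentage of all cells, as a percentage of basal cells, and the percentage of Basal2 cells in finer cluster 7 (y axes, percent), by genotype (x axis), with a point for each mouse and the mean ± SD of 3 mice. The genotypes overlap in all 3 panels, and MT1383 is the highest mouse in each.

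Between genotypes, the edited gene was examined first. *Dnaaf5* (chr5:139150223-139186510, plus strand) stood in Basal2 at 5.50, 5.35 and 6.03 CPM in WT1, WT2 and WT3 and at 7.60, 6.48 and 5.95 in MT1301, MT1306 and MT1383. The groups overlapped, with a log2 fold change of 0.08 (SE 0.18, limma voom adjusted p = 0.986). A missense change need not alter the level, and 3′ tags do not read the edited codon, so these values do not check the labels. In bulk sums of a cluster, fewer expressing cells and less RNA per cell cannot be told apart.

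Of 11161 genes tested in Basal2, 1 passed an adjusted p of 0.05 (0.00896%), and 567 had an unadjusted p under 0.05, 264 of them higher and 303 lower in *MIS/MIS*. The gene was *Wdfy1* (chr1:79702262-79776143, minus strand), an endosomal adaptor of Toll-like receptor signalling. It stood at 26.9, 22.8 and 21.0 CPM in WT1, WT2 and WT3 and at 70.3, 83.4 and 84.3 in MT1301, MT1306 and MT1383. Each *MIS/MIS* mouse was above each *WT/WT* mouse (means 79.3 ± 7.86 and 23.6 ± 3.05, log2 fold change 1.78, SE 0.12, limma voom adjusted p = 0.00138). The same separation held in finer cluster 7 (18.8 to 24.6 against 53.9 to 83.3, the 53.9 from 19 cells of MT1301) and in finer cluster 8 (24.2 to 26.2 against 74.9 to 88.2). In the other basal cells *Wdfy1* stood at 16.6, 26.7 and 21.7 in the *WT/WT* mice and at 61.6, 71.0 and 82.4 in the *MIS/MIS* mice (log2 fold change 1.70, SE 0.18), with an adjusted p of 0.629 by limma voom, where 0 of 14261 genes passed (0%) and 271 had an unadjusted p under 0.05.

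Genes whose mice did not overlap between genotypes numbered 738 higher in *MIS/MIS* (6.61%) and 376 lower (3.37%). With 3 mice against 3, labels exchanged at random separate the groups with a probability of 0.1 over both directions. A lack of overlap is therefore no finding by itself, and the genes that follow did not pass the adjusted threshold. *Timp3*, the inhibitor that marks the cluster, stood at 271, 231 and 222 CPM in WT1, WT2 and WT3 and at 369, 334 and 336 in MT1301, MT1306 and MT1383. Each *MIS/MIS* mouse was above each *WT/WT* mouse (log2 fold change 0.50, SE 0.09, limma voom adjusted p = 0.628). The share of Basal2 cells in finer cluster 8, where *Timp3* is high, was 47.6%, 53.4% and 43.7% in WT1, WT2 and WT3 and 82.8%, 61.3% and 41.5% in MT1301, MT1306 and MT1383. The part of these shares in the *Timp3* levels was not tested. Within finer cluster 8 the values were 415, 336 and 456 in *WT/WT* mice and 421, 477 and 563 in *MIS/MIS* mice and overlapped, and within finer cluster 7 they were 135, 119 and 53.5 against 168 (19 cells of MT1301), 146 and 190 and did not.

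Higher in *MIS/MIS* without overlap were also *Tpm1*, a tropomyosin, with 490, 455 and 476 against 646, 684 and 701 (log2 fold change 0.49, adjusted p = 0.266), and the collagen receptor subunit *Itga2*, with 7.24, 4.42 and 8.11 against 14.4, 14.9 and 13.8 (1.02, adjusted p = 0.807). *Mab21l4* stood at 43.7, 41.4 and 34.4 against 55.3, 61.2 and 54.5 (0.53, adjusted p = 0.875). Lower without overlap were *Krt23*, a keratin, with 55.0, 42.8 and 63.1 against 27.8, 29.1 and 18.6 (-1.26, adjusted p = 0.433), and *Tspan13*, a tetraspanin, with 13.6, 14.2 and 19.3 against 8.13, 7.47 and 9.35 (-0.96, adjusted p = 0.650). *Fut9*, a fucosyltransferase, stood at 7.82, 5.12 and 6.55 against 1.05, 3.86 and 1.28 (-2.00, adjusted p = 0.650), and *Slc6a15*, an amino acid transporter, had a log2 fold change of -1.42 (adjusted p = 0.650). All these adjusted p-values are from limma voom.

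*Gm47283* (chrY:90784738-90816464, plus strand) stood at 36.8, 66.3 and 83.1 in the *WT/WT* mice and at 0.786, 18.6 and 0.510 in the *MIS/MIS* mice (log2 fold change -5.63, SE 0.91, limma voom adjusted p = 0.433). It lies near the end of the Y chromosome and shares reads with near-identical copies, so its counts are uncertain. The Y-linked gene *Ddx3y* was present in all 6 libraries, at 59.3 to 81.7 CPM.

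None of the other markers separated the genotypes. *Cyp26b1* had means of 24.5 ± 21.7 in the *WT/WT* group and 35.6 ± 26.0 in the *MIS/MIS* group (log2 fold change 0.61, SE 0.72, limma voom adjusted p = 0.965). *Dapl1* had means of 164 ± 26.8 and 218 ± 32.5, with overlap (0.39, limma voom adjusted p = 0.952). *Upk3a* had means of 10.1 ± 2.78 and 14 ± 13.3 (0.19, limma voom adjusted p = 0.995). Of the retinoic acid genes, *Rarb* had a log2 fold change of 0.24 and *Aldh1a1* of -0.51 (limma voom adjusted p = 0.952 for both). Of 14 synthesis and transport genes tested, 11 were lower and 3 higher in *MIS/MIS* (median log2 fold change -0.26). Without overlap between genotypes, 3 of the 14 were lower and 0 higher, against 3.37% and 6.61% over all genes. In all 29 gene lists 0 members passed the threshold in Basal2.

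**Figure D5:**
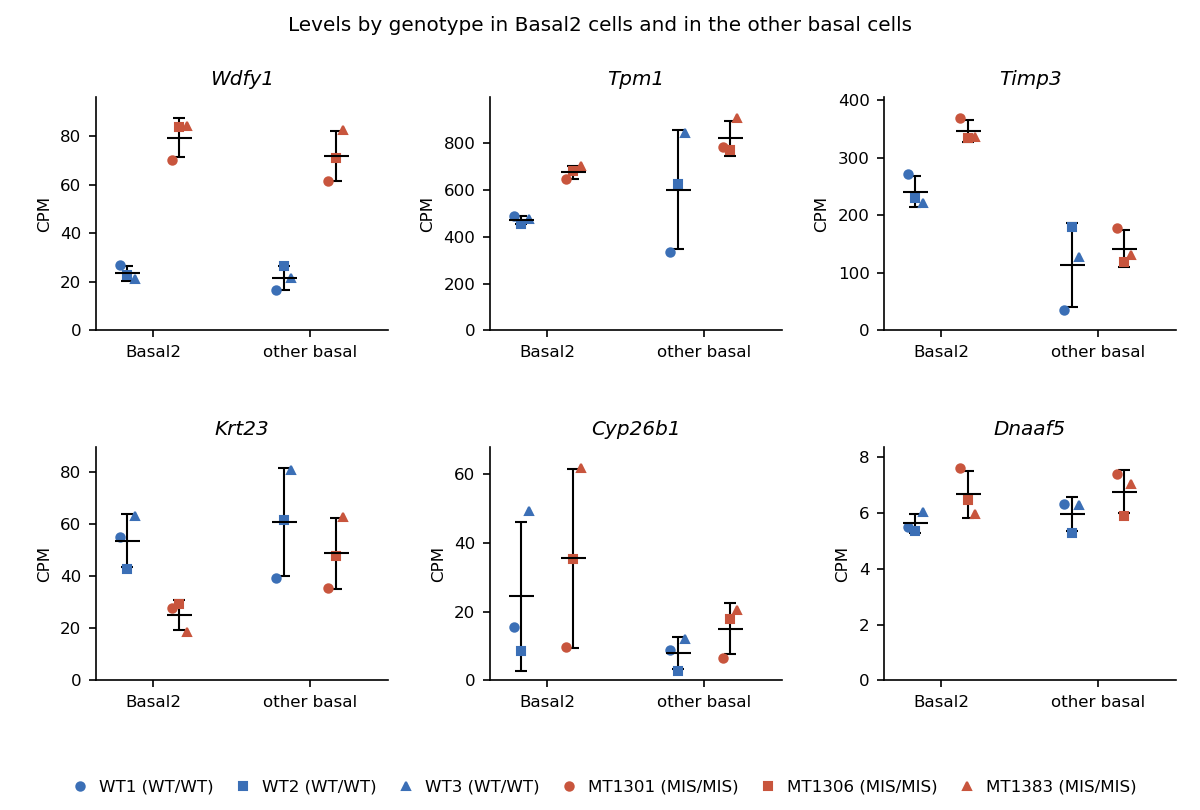
Levels (y axes, CPM, linear from 0) of 6 genes in Basal2 and in the other basal cells (x axes), with a point for each mouse, blue for *WT/WT* and red for *MIS/MIS*, and the mean ± SD of 3 mice. In Basal2, *Wdfy1* lies at 21.0 to 26.9 in the *WT/WT* and at 70.3 to 84.3 in the *MIS/MIS* group, and *Cyp26b1* overlaps.

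Whether genotype acted differently in Basal2 than in the other basal cells was tested as an interaction with the mouse as a block. Of 14098 genes, 0 passed an adjusted p of 0.05 with limma voom (0%) and 0 with limma-trend, and 488 and 356 had an unadjusted p under 0.05. The interaction for *Wdfy1* was 0.07 on the log2 scale (SE 0.17, limma voom adjusted p = 0.999). For *Cyp26b1* it was -0.43 (SE 0.34) and for *Timp3* 0.09 (SE 0.50), each with an adjusted p of 0.999 by limma voom.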

How the data were processed

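Single-cell RNA-Seq libraries of 6 mice, 3 per genotype, were analysed. The authors deposited 1 table of UMI counts (20483 genes, 23871 cells) and 1 cell table with cluster names, finer clusters, depth and mitochondrial percent. The deposited values are whole numbers, but both tables use a mistyped separator, so their unit was recorded as other and negative binomial count models were not used. The values were treated as UMI counts in limma voom, which works on their log2 CPM. Per the submitters' processing notes the reads were processed with Cell Ranger 7.1.0 on mm10. The authors kept cells with 2500 to 7500 genes and up to 25% mitochondrial reads, the upper limit being their guard against doublets, and no doublet caller was run here. Of the Basal2 cells, 2249 met these limits and 20 exceeded 7500 genes.

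UMIs were summed per mouse and cluster (at least 20 cells) and scaled to CPM. Genotypes were compared with limma 3.58.1 voom in R 4.3.3, TMM scaling (trims of 0.3 and 0.05) and Benjamini-Hochberg adjustment over all genes with 10 counts at median library size in at least 3 mice and 15 in total. Basal2 sums of 3451698 to 23522004 UMIs gave a median SD within genotype of 0.168 on the log2 scale. Shares were compared by two-sided exact permutation tests, as only 3 mice per genotype were available. Labels name 1 animal per sample, so the spread is between animals, each with 1 culture. Levels against other basal cells, summed within a mouse, used genes at 5 CPM in either group and a pseudocount of 1 CPM, which lowers the ratios of low genes. Thinning drew 5000 UMIs per cell. Shares of thinned cells were pooled over mice unless given by mouse, so MT1383 weighs most in those of Basal2. The fits were tested on simulated data. Other steps ran in Python 3.11.15 (pandas 2.3.3, scipy 1.17.1, numpy 2.4.6), and figures were drawn with matplotlib 3.10.9.

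Named genes were the markers, the 20 highest and 10 lowest by the least extreme mouse at 20 CPM, the 10 most variable, those past the threshold between genotypes or else the 5 per direction with the lowest p and no overlap, list members of extreme rank and those central to a list, *Dnaaf5* and *Wdfy1*. Genes named outside this rule (*Stra6*, *Nrip1*, *Jag1*, *Tgfb1*, *Tgfb2*, *Areg*, *Itga6*, *Cyp2f2*, *Por*, *Mki67*, *Ddx3y* and the leading markers of other cell types) were chosen after their values were seen. The cluster, its markers and the gene lists were chosen with earlier results of these data known. Counting intervals are not given, since cells of a mouse are not independent. Alternatives were other scaling, filters, cell limits, thinning, limma-trend, sample weights and leaving out each mouse. A withheld item is not reported here.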

Additional observations from a re-analysis of the deposited data

How the results depend on the processing

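*Wdfy1* passed the threshold in Basal2 under every alternative run (adjusted p 0.000387 to 0.0396, limma). The number of genes passing was 1 in all of them, leave-one-out included (1 to 1), except with cells thinned to 5000 UMIs, where it was 3, adding *Krt23* (-1.43, adjusted p = 0.0410, limma voom) and *Gm47283* (-5.71, adjusted p = 0.00716, limma voom). The cause was not tested. The interaction gave 0 genes under all alternatives (293 to 870 at an unadjusted p under 0.05). Log2 fold changes that turned sign, none of them called, were those of *Cyp26b1*, from -0.10 (without MT1383) to 1.64 (without WT3) when each mouse was left out, of *Upk3a*, from -0.23 (without MT1306) to 0.60 (without MT1301) and -0.17 with limma-trend, and of the *Wdfy1* interaction, from -0.058 (without WT2) to 0.221 (without WT1), with -0.0019 without WT3. The difference in the share of Basal2 cells ranged from -0.0317 (without MT1383) to 8.10 percentage points (without MT1301) when each mouse was left out. Of 340 values against other basal cells, 327 moved by less than the spread between mice and 0 turned sign. Of 147 list medians between genotypes, 138 moved by less than that spread. No paired analysis was possible because the *MIS/MIS* columns carry animal numbers that match no replicate number of the labels. With 3 mice per genotype, 6 libraries and 1 mouse holding 57.1% of the cells, small differences were not detectable, and rare transcripts such as *Upk3a* rest on few UMIs per mouse.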
